A study of Mus musculus with 6 samples.

Results

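The genes described here encode the core of the splicing machinery and its best known regulators, namely every measured gene whose symbol begins with Srsf, Hnrnp, Snrp, Sf3a, Sf3b or Prpf. Each gene was represented by 1 probe set of the array, the one with the highest mean log2 signal over the 6 arrays among those assigned to a single gene. The rule gave 59 genes of the 18193 measured: 10 Srsf, 19 Hnrnp, 9 Snrp, 3 Sf3a, 6 Sf3b and 12 Prpf genes. Hnrnpa1l2-ps2, Hnrnpa3, Snrpa, Snrpd1 and Snrpd2 were not analysed here because their probe sets were assigned to several genes.

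Pre-mRNA splicing removes introns in a pair of chemical steps carried out by the spliceosome, which assembles on each intron from small nuclear ribonucleoprotein particles (snRNPs). The U1 snRNP binds the start of the intron and the U2 snRNP its branch point, and the U4/U6.U5 tri-snRNP then joins and is rearranged into the active enzyme. SR proteins, rich in arginine and serine, mostly promote the use of nearby splice sites, whereas hnRNP proteins coat nascent RNA and often repress them, so that the balance of both helps to set alternative splicing.

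The study measured total RNA of mouse embryonic fibroblasts on Affymetrix arrays, with 3 arrays of wild-type cells (MEF-WT) and 3 of cells labelled as knockout for both c-abl and arg (MEF-DKO), the genes Abl1 and Abl2. Both groups were labelled C57BL/6, from embryos of 14 days of gestation, male and female pooled, and were grown in the same serum-supplemented medium with no treatment named. The labels do not state how many embryos or cultures each group came from, how the alleles were deleted, or whether the cells were primary or a line, and p-values therefore cover only how these arrays vary, possibly for technical reasons alone.

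The targeted genes were not clearly lower in the arrays labelled knockout: the brightest probe sets of Abl1 and Abl2 differed by -0.11 (95% interval -0.23 to 0.0046) and -0.011 (95% interval -0.12 to 0.10) on the log2 scale, and whether these probes lie in the deleted parts was not analysed here. Both dim further probe sets of Abl1 rose, by 0.28 (adjusted p = 0.00388) and 0.21 (adjusted p = 0.000799). All adjusted p-values are from limma, and every direction below is that of the arrays labelled knockout. Of 16 fibroblast marker genes 10 rose and 2 fell, and 13 reached a signal of 100 on at least 1 array. Among them Vim, for the filament protein vimentin, was bright in both groups (means of 5288 and 7306). Pdgfra was near the floor on wild-type arrays (9.99, against 1789 on knockout arrays), and the collagen genes Col1a2 and Col3a1 were near it in the knockout arrays (9.71 and 14.9, and 2284 and 1934 in wild type). Of the 9 epithelial, 8 endothelial, 7 skeletal muscle and 3 erythroid marker genes measured, 0 reached a signal of 100. The summed signal of 11 macrophage and leukocyte markers was 246 to 263 on wild-type arrays and 573 to 615 on knockout arrays, where Cd14 made most of it (401 on average). That of 10 neural and glial markers was 257 to 274 and 316 to 405, and within it Sox2 went from a mean of 3.67 to 236 while 5 markers fell, among them Map2 (101 to 30.3) and Tubb3 (52.9 to 8.14). For the beta-actin control the 3' over 5' signal was, on the log2 scale, 0.47 ± 0.031 and 0.36 ± 0.012 (SD, n = 3 each; exact permutation p = 0.1, the smallest possible). For the Gapdh control it was -0.15 ± 0.042 and -0.17 ± 0.036 (exact permutation p = 0.6).

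The question was how transcripts of these genes differed between the 2 groups. They moved in both directions: 20 of 59 rose and 29 fell in the knockout arrays at an adjusted p under 0.05 from limma, where 24.2% of all genes rose, 35.5% fell and 59.7% did either. The largest rises were of the SR protein genes Srsf6 (1.04) and Srsf5 (0.85) and of the kinase gene Prpf4b (0.91), and the largest falls of the U2 snRNP gene Snrpa1 (-1.67), the SR protein gene Srsf4 (-1.59) and the spliceosome activation gene Prpf38a (-1.30), all as differences of log2(signal + 16), knockout minus wild type. At least 2-fold, 1 member rose and 7 fell, where 7% and 8.77% of all genes and 10.7% and 13.4% of those with a mean log2(signal + 16) above 7 did so.

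The median difference of the 59 members was -0.10, with arrays scaled as deposited, against -0.031 for all genes. Splicing genes are bright on these arrays, and bright genes pass more often. Of the 56 members with a mean log2(signal + 16) above 7, 19 rose and 29 fell, 33.9% and 51.8%, beside 38.5% and 47.4% of all genes that bright. The shares of the members were thus close to those of other bright genes. The groups did not overlap for 49 members, nor for 64.7% of all genes. Among bright genes this held for 48 of the 56 members and for 5854 of all 6635.

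The overall direction depended on how the arrays were scaled. With poly-A spike controls as reference, 35 members rose and 12 fell and their median was 0.32, and with hybridization spike controls 9 rose and 39 fell with a median of -0.37. The median of all genes moved too, from -0.031 to 0.13 and -0.13. With each array centred on its median, the members' median was 0.0031 and that of all genes 0.072. Of all genes past the threshold, 40.6% were rises as deposited, 80% with poly-A spikes, 21.1% with hybridization spikes and 63.5% with centred arrays. The falls of Hnrnpa1, Hnrnpa2b1, Hnrnpl, Hnrnpll, Hnrnpm, Prpf19, Sf3b1, Sf3b5, Snrpb and Srsf3 had values above 0 with poly-A spikes, and the rises of Hnrnph2, Hnrnpk, Prpf40b, Sf3b4 and Srsf2 had values below 0 with hybridization spikes. The centring shifts all genes of an array by the same log2 amount, whereas the spike scalings shifted dim genes by less than bright ones. With poly-A spikes the dim Snrpn went from -0.020 to 0.13 and the bright Snrpd3 from -0.026 to 0.51. The Snrp median stayed lowest and the Prpf median highest under these scalings. With poly-A spikes the Srsf median (-0.029 to 0.35) fell below that of Sf3a and Sf3b (-0.13 to 0.40). Most members are bright and shift by similar amounts, so a kept order of the family medians is no sign of stability.

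**Figure D1:**
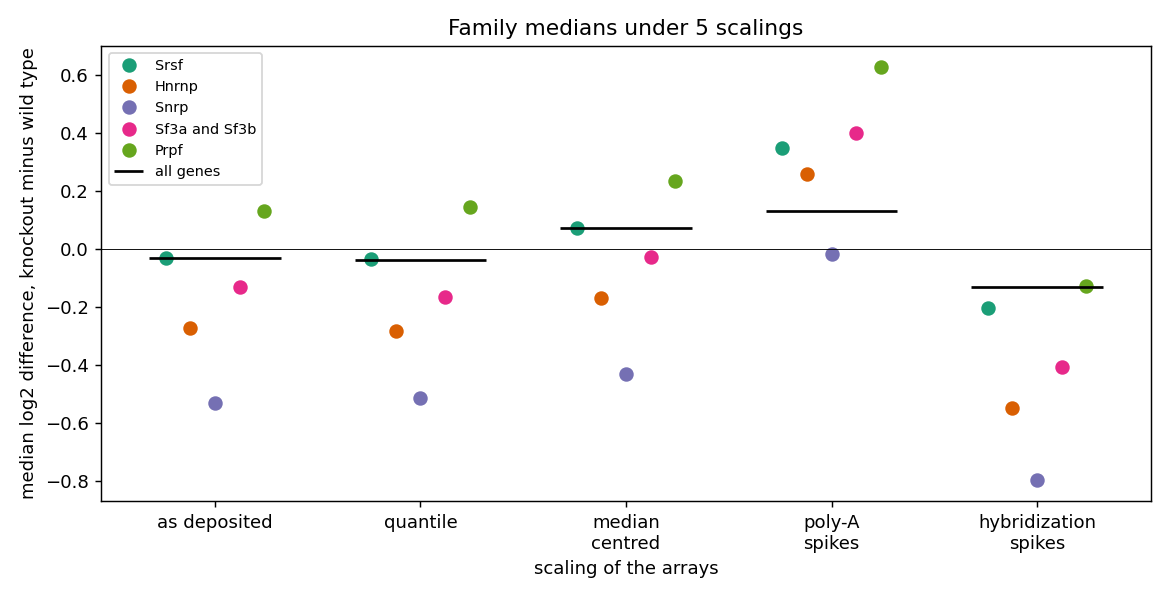
Median log2 difference (vertical axis, knockout minus wild type) of each gene family (points) and of all genes (black lines) under 5 scalings of the arrays (horizontal axis). The points of a scaling move up or down together, and the Hnrnp and Sf3a and Sf3b medians are below 0 as deposited and above 0 with poly-A spikes.

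Cells of the 2 groups also differed in division genes. All 38 measured proliferation genes fell, and their summed signal was 47690.0 to 48840.0 on wild-type arrays and 14961 to 17001 on knockout arrays. The summed signal of the 59 splicing genes fell less, from 64816 ± 1151 to 55856 ± 327 (SD, n = 3 each, exact permutation p = 0.1, the smallest possible). Both sums are of signals as deposited and were not compared under other scalings. With poly-A spikes as reference 35 of the 59 rose and 12 fell. The part of proliferation in the differences below was not tested, and in bulk RNA fewer cells of a type and less RNA per cell cannot be told apart.

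**Figure D2:**
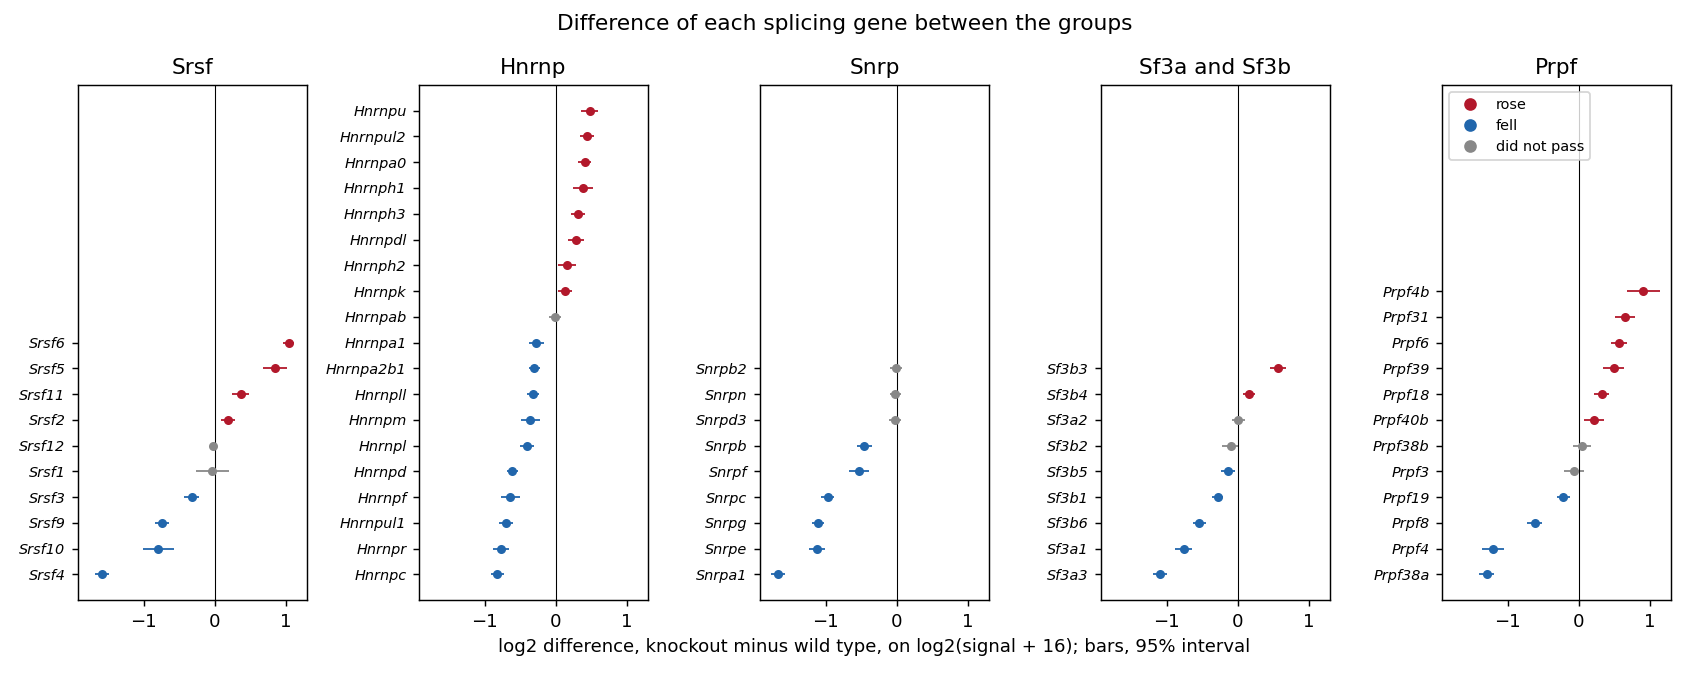
Log2 difference (horizontal axis, log2(signal + 16) of the knockout less that of the wild-type arrays) of each of the 59 genes with its 95% interval from limma, by family, in red where it rose, blue where it fell and grey where it did not pass an adjusted p of 0.05. With arrays scaled as deposited the Snrp genes lie at or below 0, from -0.011 for Snrpb2 to -1.67 for Snrpa1, while the other families hold genes on both sides; with poly-A spike scaling 3 Snrp genes rose.

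The Snrp genes, for proteins of the snRNPs, had the lowest median of the families. Of 9 Snrp genes 6 fell, 3 of them at least 2-fold, and 0 rose. This is 66.7% that fell, where 47.4% of all genes above a mean log2 of 7 fell and 13.4% fell at least 2-fold. The Snrp median was -0.53 as deposited, -0.018 with poly-A spikes and -0.80 with hybridization spikes. Under poly-A spike scaling 3 of them rose and 4 fell. When probe sets of the suffixes a, s and x were left out, which can match more than 1 transcript, 1 rose and 3 fell. That setting removed Snrpa1, Snrpb and Snrpe, all of whose probe sets have these suffixes, and Snrpc, Snrpf and Snrpg still fell. Snrpa1 encodes a protein specific to the U2 snRNP. Its signal was 764, 807 and 747 on wild-type arrays against 232, 242 and 220.5 on knockout arrays. Every knockout value was far below every wild-type value, and the log2 difference was -1.67 ± 0.048 (SE, adjusted p = 1.28e-11). Its other probe sets, in the fit over all probe sets, fell by 1.31 and 1.41.

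The Sm proteins B, D1, D2, D3, E, F and G form the ring around the Sm site of the spliceosomal RNAs, and 5 of these were measured, not all with the same result. Snrpe, for Sm protein E, had signals of 3742, 3773 and 3619 on wild-type arrays against 1662, 1831 and 1577 on knockout arrays, a difference of -1.13 ± 0.052 (SE, adjusted p = 9.87e-10). Snrpg, for Sm protein G, had 3089, 3054 and 3107 on wild-type arrays against 1364, 1453 and 1428 on knockout arrays, a difference of -1.12 ± 0.038 (SE, adjusted p = 6.46e-11). In both genes the groups lay far apart. The other probe set of Snrpg fell by 1.26. Snrpf, for Sm protein F, had 399.7, 378 and 367 on wild-type arrays against 233, 265 and 281 on knockout arrays (-0.53 ± 0.063 SE, adjusted p = 9.25e-06). Snrpb, for Sm proteins B and B', had 2002, 1949 and 1805 on wild-type arrays against 1347, 1362 and 1464 on knockout arrays (-0.46 ± 0.048 SE, adjusted p = 2.92e-06). The change of Snrpb and Snrpf was thus less than that of Snrpe and Snrpg in the point estimates, and these differences between genes were not tested.

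Snrpd3, for Sm protein D3, did not pass, with signals of 2375, 2365 and 2453 on wild-type arrays against 2339, 2317 and 2407 on knockout arrays and overlapping groups (-0.026 ± 0.037 SE, adjusted p = 0.578). Its dimmer probe sets rose, by 0.87 and 0.20, and the mean of its probe sets was at 0.35. Snrpc encodes U1-C, the U1 snRNP protein that helps to recognise the start of the intron. It had 1223, 1253 and 1222 on wild-type arrays against 594, 622 and 647 on knockout arrays, a difference of -0.97 ± 0.041 (SE, adjusted p = 4.57e-10). Snrpb2, for another protein of the U2 snRNP, had 512, 525 and 506 on wild-type arrays against 492, 524 and 516 on knockout arrays and did not pass (-0.011 ± 0.041 SE, adjusted p = 0.842). A dim probe set of it rose, from a mean of 17.1 to 68.4. Snrpn, the imprinted Sm gene of neurons, was close to the floor in both groups, at 5.49, 5.69 and 7.76 on wild-type arrays against 6.30, 5.95 and 5.70 on knockout arrays.

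Promoter sequences are shown for the 4 Snrp genes with the largest falls and for the SR protein genes with the largest rises, from RefSeq on the build GRCm38.p6, each from 250 bases before to 50 bases after the annotated start of transcription. Capitals mark matches, on either strand, to short motifs. That of the ETS factors was searched as CCGGAAG and that of the factor NF-Y as CCAAT. The E-box, bound by Myc and its relatives, was searched as CACGTG, and the box near the start of some genes as TATAAA. The motif of E2F factors was searched as TTTCGCGC and, as another form of it, as TTTGGCGC. The match in Snrpe is a pair that overlaps on opposite strands.
Snrpa1 (chr7:66060086-66060385, plus strand): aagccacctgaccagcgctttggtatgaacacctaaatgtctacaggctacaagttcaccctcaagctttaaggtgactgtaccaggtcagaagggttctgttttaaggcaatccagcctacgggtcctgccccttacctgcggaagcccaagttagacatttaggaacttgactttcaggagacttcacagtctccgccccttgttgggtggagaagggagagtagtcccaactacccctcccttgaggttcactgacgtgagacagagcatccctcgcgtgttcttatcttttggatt
Snrpg (chr6:86371290-86371589, plus strand): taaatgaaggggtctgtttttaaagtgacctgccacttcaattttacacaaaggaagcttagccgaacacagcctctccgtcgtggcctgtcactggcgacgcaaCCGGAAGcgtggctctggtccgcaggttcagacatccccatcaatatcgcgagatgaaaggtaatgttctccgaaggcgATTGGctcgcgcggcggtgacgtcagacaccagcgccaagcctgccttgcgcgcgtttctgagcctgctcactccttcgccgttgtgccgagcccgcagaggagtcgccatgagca
Snrpe (chr1:133610231-133610530, minus strand): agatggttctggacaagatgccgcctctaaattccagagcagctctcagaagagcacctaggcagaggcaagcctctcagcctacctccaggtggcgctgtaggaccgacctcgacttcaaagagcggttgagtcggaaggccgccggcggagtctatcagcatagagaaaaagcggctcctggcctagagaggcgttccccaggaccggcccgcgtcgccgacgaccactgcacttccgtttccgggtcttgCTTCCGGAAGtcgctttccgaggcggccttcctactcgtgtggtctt
Snrpc (chr17:27839837-27840136, plus strand): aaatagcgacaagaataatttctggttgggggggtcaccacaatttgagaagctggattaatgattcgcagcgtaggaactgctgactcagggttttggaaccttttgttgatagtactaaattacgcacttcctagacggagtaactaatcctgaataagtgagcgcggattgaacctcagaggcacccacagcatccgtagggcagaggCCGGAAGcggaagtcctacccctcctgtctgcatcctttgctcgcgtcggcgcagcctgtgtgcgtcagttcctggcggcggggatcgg
Srsf6 (chr2:162931258-162931557, plus strand): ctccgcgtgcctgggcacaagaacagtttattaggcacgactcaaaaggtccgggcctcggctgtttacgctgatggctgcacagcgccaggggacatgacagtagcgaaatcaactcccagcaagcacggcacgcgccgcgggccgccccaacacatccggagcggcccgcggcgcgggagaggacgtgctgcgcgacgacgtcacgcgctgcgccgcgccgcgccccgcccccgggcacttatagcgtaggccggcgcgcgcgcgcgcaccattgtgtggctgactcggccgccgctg
Srsf5 (chr12:80945249-80945548, plus strand): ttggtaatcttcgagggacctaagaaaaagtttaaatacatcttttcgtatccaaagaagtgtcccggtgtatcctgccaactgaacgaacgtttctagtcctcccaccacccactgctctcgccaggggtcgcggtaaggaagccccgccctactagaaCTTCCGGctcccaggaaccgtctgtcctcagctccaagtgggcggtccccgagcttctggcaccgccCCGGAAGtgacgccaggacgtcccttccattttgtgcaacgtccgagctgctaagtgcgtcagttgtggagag

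Of the 59 genes, 53 had an entry in the promoter table. The ETS letters were in 18 of these (34.0%), in 9.12% of the 27025 promoters of that table, 1 a gene, and in 21.7% of those of genes with a mean log2 signal above 7. They were in 10 of 26 promoters of members that fell and in 5 of 17 of members that rose. CCAAT was in 27 member promoters (50.9%, and 39.1% of bright genes), 13 of members that fell and 8 of members that rose. The E-box was in 6 (11.3%, and 11.2% of bright genes), TATAAA in 5 and the E2F letters in 1, and all 3 thus were in few members of either direction. A match describes these letters only, not a bound site.

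Srsf genes moved in both directions, in shares near those of other bright genes. Of 10 genes 4 rose and 4 fell. In shares, 40% rose and 40% fell, beside 38.5% and 47.4% of genes above a mean log2 of 7. Their median was -0.029 as deposited, 0.35 with poly-A spikes and -0.20 with hybridization spikes. Srsf6 encodes SRp55, an SR protein that activates exons. It showed 749, 745 and 733 on wild-type arrays against 1506, 1584 and 1542 on knockout arrays, a difference of 1.04 ± 0.037 (SE, adjusted p = 9.46e-11), and was the only member to rise at least 2-fold on its brightest probe set. Its other probe sets rose as well, by 0.67, 0.86 and 0.23. Srsf5, which encodes SRp40, had 1072, 1329 and 1369 on wild-type arrays against 2266, 2159.6 and 2383 on knockout arrays (0.85 ± 0.077 SE, adjusted p = 6.9e-07). These were the largest rises among the 59 genes apart from Prpf4b.

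Srsf11, for the SR-related protein p54, had 843, 834 and 880.2 on wild-type arrays against 1122, 1010.2 and 1179.9 on knockout arrays (0.36 ± 0.053 SE, adjusted p = 6.24e-05). Its dimmer probe sets rose by more, 1.64 at the most. Srsf2, which encodes SC35, a protein of nuclear speckles, had 1306, 1259 and 1215 on wild-type arrays against 1429.6, 1381 and 1491 on knockout arrays (0.18 ± 0.043 SE, adjusted p = 0.00239). The rise of Srsf2 was small and its other bright probe set did not pass (-0.17), while another rose by 0.27. Srsf2 was at -0.035 with chromosomes centred and at -0.092 under hybridization spike scaling.

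Srsf4, which encodes SRp75, had 677, 712 and 724 on wild-type arrays against 231, 219 and 222 on knockout arrays, a difference of -1.59 ± 0.044 (SE, adjusted p = 1.07e-11). Srsf9, for SRp30c, had 1643, 1643 and 1601 on wild-type arrays against 906, 973 and 1022 on knockout arrays (-0.74 ± 0.046 SE, adjusted p = 1.6e-08). Srsf10, for SRp38, which represses splicing when it loses its phosphates, had 286, 289 and 217 on wild-type arrays against 129, 158 and 147 on knockout arrays (-0.79 ± 0.099 SE, adjusted p = 1.38e-05). The groups did not overlap for any of these 3. Srsf3, the smallest SR protein, which also helps export of mRNA, had 1160.5, 1108 and 1026 on wild-type arrays against 877, 861 and 875 on knockout arrays (-0.33 ± 0.046 SE, adjusted p = 4.42e-05). Of its 5 other probe sets 2 rose, by 0.22 and 0.70, and 1 fell. One dim probe set of Srsf10 rose as well (0.43), while its other ones fell by 0.27 and 0.47.

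Srsf1 encodes SF2/ASF, the founding SR protein. Its brightest probe set did not pass, with 957, 878 and 662 on wild-type arrays against 844, 837 and 729 on knockout arrays and overlapping groups (-0.037 ± 0.11 SE, adjusted p = 0.792), yet 4 of its 6 other probe sets rose, by 0.32 to 0.74. Without wild-type replicate 3, the lowest of its group, the brightest probe set was at -0.19 (limma adjusted p = 0.0246). Srsf12 was at the floor, with signals from 1.65 to 2.52 on the 6 arrays.

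**Figure D3:**
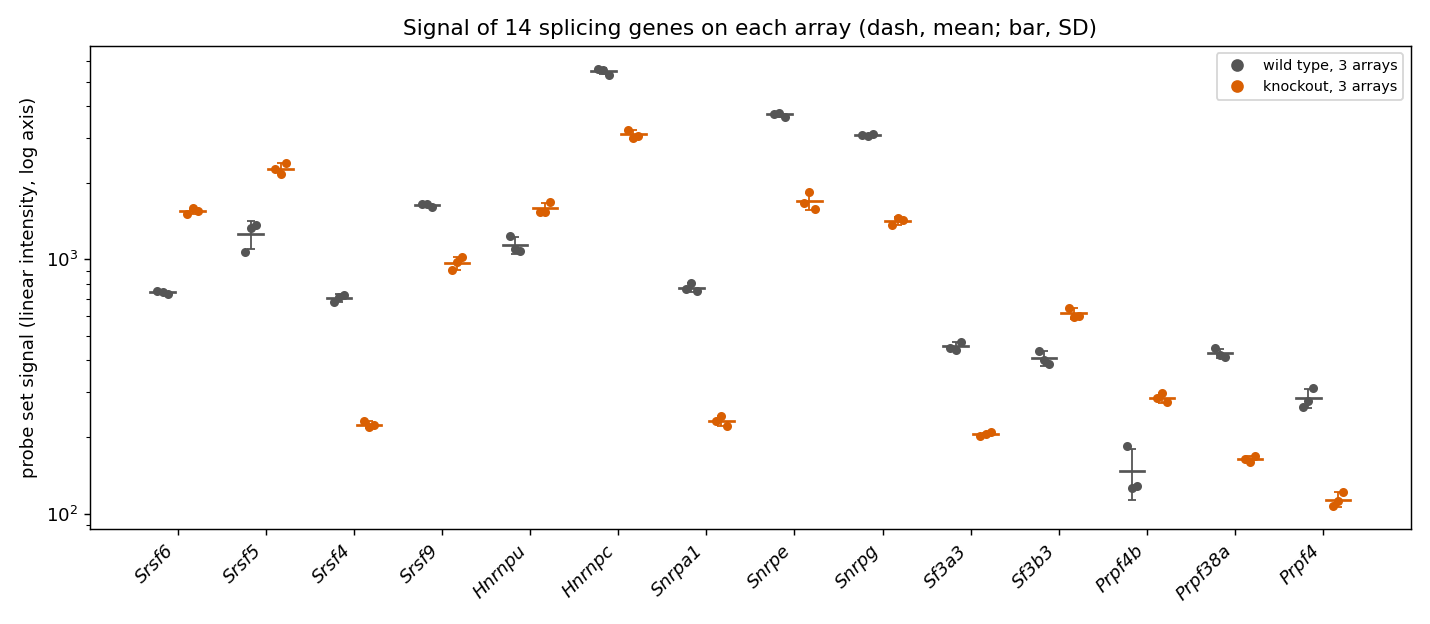
Signal (linear intensity, log axis) of 14 genes by array. A point is 1 array, a dash the mean of a group and a bar its SD (n = 3 each). Wild-type and knockout points do not overlap for any of these genes, the knockout points being higher for Srsf6, Srsf5, Hnrnpu, Sf3b3 and Prpf4b and lower for the others.

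Hnrnp genes moved in both directions, by less than 2-fold on the brightest probe set of each gene. Of 19 Hnrnp genes 8 rose and 10 fell, from -0.82 to 0.48. In shares, 42.1% rose and 52.6% fell, beside 38.5% and 47.4% of genes above a mean log2 of 7. The median was -0.27, but 0.26 under poly-A spike scaling, 0.038 with the probe sets of a gene averaged and 0.023 when those of the suffixes a, s and x were left out. Hnrnpc encodes hnRNP C, which binds runs of uridine and is a core protein of the hnRNP particle. It had 5615, 5560.2 and 5314 on wild-type arrays against 3235, 3009 and 3057 on knockout arrays, the largest fall of the family (-0.82 ± 0.043 SE, adjusted p = 3.35e-09).

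Hnrnpr, for an RNA-binding protein related to Syncrip, had 1177, 1187 and 1062 on wild-type arrays against 645, 706 and 634 on knockout arrays (-0.77 ± 0.054 SE, adjusted p = 5.33e-08). Hnrnpul1 had 863, 898 and 924 on wild-type arrays against 567, 538 and 522 on knockout arrays (-0.71 ± 0.044 SE, adjusted p = 1.91e-08). Hnrnpf, which binds runs of guanosine, had 3138, 3165 and 2885 on wild-type arrays against 1907, 2161 and 1826 on knockout arrays (-0.64 ± 0.060 SE, adjusted p = 1.05e-06). For all 3 genes each knockout array was below each wild-type array. The other probe sets of Hnrnpf fell by 0.74 to 0.97. The paralogue Hnrnph1 binds the same kind of run and moved the other way, with 1927, 1855 and 1612 on wild-type arrays against 2472, 2385 and 2196 on knockout arrays (0.39 ± 0.064 SE, adjusted p = 0.000188). Hnrnph3 and Hnrnph2 rose by 0.32 and 0.16, the latter with an adjusted p of 0.124 without wild-type replicate 3 and 0.126 without knockout replicate 2.

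Hnrnpu encodes SAF-A, a nuclear matrix protein that binds chromatin and RNA. Its brightest probe set had 1233, 1100.1 and 1073 on wild-type arrays against 1539.5, 1538 and 1679 on knockout arrays (0.48 ± 0.055 SE, adjusted p = 7.33e-06), the largest rise of the family, but its next brightest ones fell by 0.19 and 0.25 and its dimmer ones rose by 1.11 and 1.27. The direction of Hnrnpu therefore depends on the probe set. Hnrnpul2, a relative of Hnrnpu, had 304, 289 and 281 on wild-type arrays against 397, 408 and 394 on knockout arrays (0.44 ± 0.045 SE, adjusted p = 2.29e-06), and its other probe set fell by 0.18. Hnrnpa0, which binds AU-rich elements, had 1287, 1360.1 and 1267 on wild-type arrays against 1701, 1794 and 1717 on knockout arrays (0.41 ± 0.041 SE, adjusted p = 1.88e-06).

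Hnrnpd encodes AUF1, which binds AU-rich elements and controls mRNA decay. Its brightest probe set had 759, 756 and 757 on wild-type arrays against 489.9, 484 and 498 on knockout arrays (-0.61 ± 0.037 SE, adjusted p = 1.35e-08). A second one rose, from a mean of 72.3 to 181 (1.16). Hnrnpa1, for hnRNP A1, which promotes exon skipping against SRSF1, had 977, 973 and 896 on wild-type arrays against 814, 763 and 771 on knockout arrays (-0.27 ± 0.045 SE, adjusted p = 0.000182), and its dim probe set rose by 0.77. Hnrnpa2b1, its paralogue, fell by 0.30. Of the remaining ones, Hnrnpl, which binds CA repeats, fell by 0.40, its paralogue Hnrnpll by 0.32 and Hnrnpm by 0.36.

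Hnrnpdl had 3270.5, 3353 and 3566 on wild-type arrays against 4437, 3918 and 4123 on knockout arrays (0.29 ± 0.052 SE, adjusted p = 0.000321), and 4 of its 6 other probe sets rose, by up to 1.26, while 1 fell. Hnrnpk, a poly-C binding protein, rose by 0.13 (adjusted p = 0.0243), which no longer passed without wild-type replicate 3 (0.0967) or without knockout replicate 1 or 2 (0.0705 and 0.0772). Its other bright probe sets did not pass (0.0074 and 0.12). Hnrnpab did not pass (-0.017 ± 0.038 SE, adjusted p = 0.736), and of its 6 other probe sets 2 rose and 2 fell.

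The SF3a and SF3b complexes are parts of the U2 snRNP that hold the branch point. Of 3 Sf3a genes 2 fell and of 6 Sf3b genes 3 fell and 2 rose, in all 55.6% and 22.2%, beside 47.4% and 38.5% of bright genes. All 9 together had a median of -0.13, or 0.40 under poly-A spike scaling. Sf3a3 had 449, 441 and 474 on wild-type arrays against 202, 205 and 208 on knockout arrays, a difference of -1.09 ± 0.045 (SE, adjusted p = 3.97e-10). Sf3a1 had 224, 202 and 217 on wild-type arrays against 118, 118 and 123 on knockout arrays (-0.76 ± 0.056 SE, adjusted p = 9.37e-08). Its next probe sets rose, by 0.75 and 0.95, so the direction of Sf3a1 depends on the probe set while both probe sets of Sf3a3 fell. Sf3a2 had 2374, 2316 and 2297 on wild-type arrays against 2417, 2242 and 2376 on knockout arrays and did not pass (0.0094 ± 0.040 SE, adjusted p = 0.861).

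Sf3b3, a large subunit of SF3b, rose, with 437, 400.2 and 386 on wild-type arrays against 645, 594 and 598 on knockout arrays (0.57 ± 0.053 SE, adjusted p = 8.81e-07), and its dimmer probe set rose by 1.24. Sf3b4 had 548, 546 and 553 on wild-type arrays against 623, 602 and 624 on knockout arrays (0.16 ± 0.038 SE, adjusted p = 0.00241). Sf3b6, the protein that contacts the branch point adenosine, had 1137, 1068 and 1088 on wild-type arrays against 747, 771 and 726 on knockout arrays (-0.54 ± 0.041 SE, adjusted p = 1.16e-07). Both of its other bright probe sets fell too, by 0.55 and 0.47. Sf3b1, the largest subunit, whose human counterpart is mutated in myelodysplasia, had 1129.8, 1150.4 and 1159 on wild-type arrays against 938, 931 and 949.8 on knockout arrays (-0.28 ± 0.035 SE, adjusted p = 1.51e-05), and 2 of its 3 other probe sets fell and 1 rose. Sf3b5 fell by 0.13, with adjusted p-values of 0.0938, 0.0767 and 0.0741 without wild-type replicate 3 and without knockout replicates 1 and 2, and Sf3b2 did not pass (-0.10 ± 0.056 SE, adjusted p = 0.151).

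The Prpf genes are named after yeast mutants defective in pre-mRNA processing and act at several steps. Of 12 Prpf genes 6 rose and 4 fell, 50% and 33.3%, beside the 38.5% and 47.4% of bright genes. Their median was 0.13 as deposited and -0.13 with hybridization spikes. Prpf4b encodes a kinase that phosphorylates tri-snRNP proteins. It had 185, 126 and 129 on wild-type arrays against 283, 299 and 274 on knockout arrays (0.91 ± 0.11 SE, adjusted p = 9.06e-06), and all 5 other probe sets rose too, by 0.46 to 1.69. Prpf39, whose yeast homologue is a U1 snRNP protein, had 70.7, 76.5 and 71.1 on wild-type arrays against 114, 102 and 111 on knockout arrays (0.49 ± 0.069 SE, adjusted p = 4.16e-05). Its other probe sets rose by 0.92 and 1.42, and the latter, which has the higher mean of linear signals, would have given Prpf39 a rise over 2-fold.

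Tri-snRNP genes moved in both directions. Prpf31, which joins the U4/U6 and U5 particles, had 87.5, 87.8 and 89.1 on wild-type arrays against 142, 142 and 160.2 on knockout arrays (0.65 ± 0.064 SE, adjusted p = 1.58e-06). Prpf6, which bridges the same particles, had 354, 344 and 380.1 on wild-type arrays against 533, 520.1 and 566 on knockout arrays (0.57 ± 0.050 SE, adjusted p = 5.08e-07), with another probe set that fell by 0.35. Prpf4, of the U4/U6 snRNP, had 263, 278 and 311 on wild-type arrays against 107, 112 and 122 on knockout arrays (-1.21 ± 0.068 SE, adjusted p = 7.33e-09). Its partner Prpf3 did not pass (-0.070 ± 0.063 SE, adjusted p = 0.373). Prpf8, the large protein at the centre of the spliceosome, had 863, 863 and 813 on wild-type arrays against 534, 524 and 575 on knockout arrays (-0.62 ± 0.046 SE, adjusted p = 9.61e-08).

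Prpf38a, needed for activation of the assembled spliceosome, had 446, 421 and 414 on wild-type arrays against 164, 159 and 169 on knockout arrays, a difference of -1.30 ± 0.048 (SE, adjusted p = 1.37e-10). Its paralogue Prpf38b did not pass (0.048 ± 0.059 SE, adjusted p = 0.518), although its 3 other probe sets rose, by 0.23, 1.57 and 1.66. Prpf19, the ubiquitin ligase that gives its name to the Prp19 complex, had 1719, 1649 and 1576 on wild-type arrays against 1472, 1406 and 1367 on knockout arrays (-0.22 ± 0.044 SE, adjusted p = 0.000882). Its other bright probe sets did not pass (-0.036, -0.037 and -0.085), and a dim one fell by 0.23. The smaller rises were of Prpf18, a factor of the second step (0.32), and Prpf40b, related to a yeast U1 protein (0.21), which did not pass without wild-type replicate 1 (limma adjusted p = 0.0508).

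Many of these genes are measured by several probe sets, which can lie in different parts of the transcripts, and the probe sets of a gene did not always move together. Of the 43 members with several probe sets, 36 passed on the brightest one. A further probe set passed in the same direction for 26 of these, beside 4331 of all 6270 genes in that position. For 10 a further one passed in the opposite direction (27.8%, beside 13.7% of all genes in that position). Of the 7 that did not pass, 6 had another probe set that did, beside 981 of all 2740 such genes. These 43 members had 112 further probe sets, and the 9010 genes with several had 16752. The members thus had more per gene and more occasions for a further call in either direction, so these counts and shares are not like for like. In Hnrnpa1, Hnrnpd, Sf3a1, Sf3b1, Srsf3 and Srsf10 the brightest probe set fell and a dimmer one rose, and in Hnrnpdl, Hnrnpu, Hnrnpul2 and Prpf6 the reverse was seen.

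The dim probe sets rose more often than they fell. Of the 43 further probe sets of members at or below a mean log2(signal + 16) of 7, 20 rose and 6 fell (46.5% and 14%), against 25.7% and 23.6% of such probe sets of all genes, while over all brightnesses 28.7% of further probe sets rose and 27.5% fell. Of the 69 brighter ones, 23 rose and 31 fell (33.3% and 44.9%), against 41.2% and 43.8% of such probe sets of all genes. Prpf38b and Srsf11 had the largest rises on dim probe sets, 1.66 and 1.64, against 0.048 and 0.36 on their brightest. The largest fall of a dim probe set was in Prpf38a (-0.95). Which transcript parts these probe sets lie in was not analysed here, and probe sets of 1 gene are not independent.

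**Figure D4:**
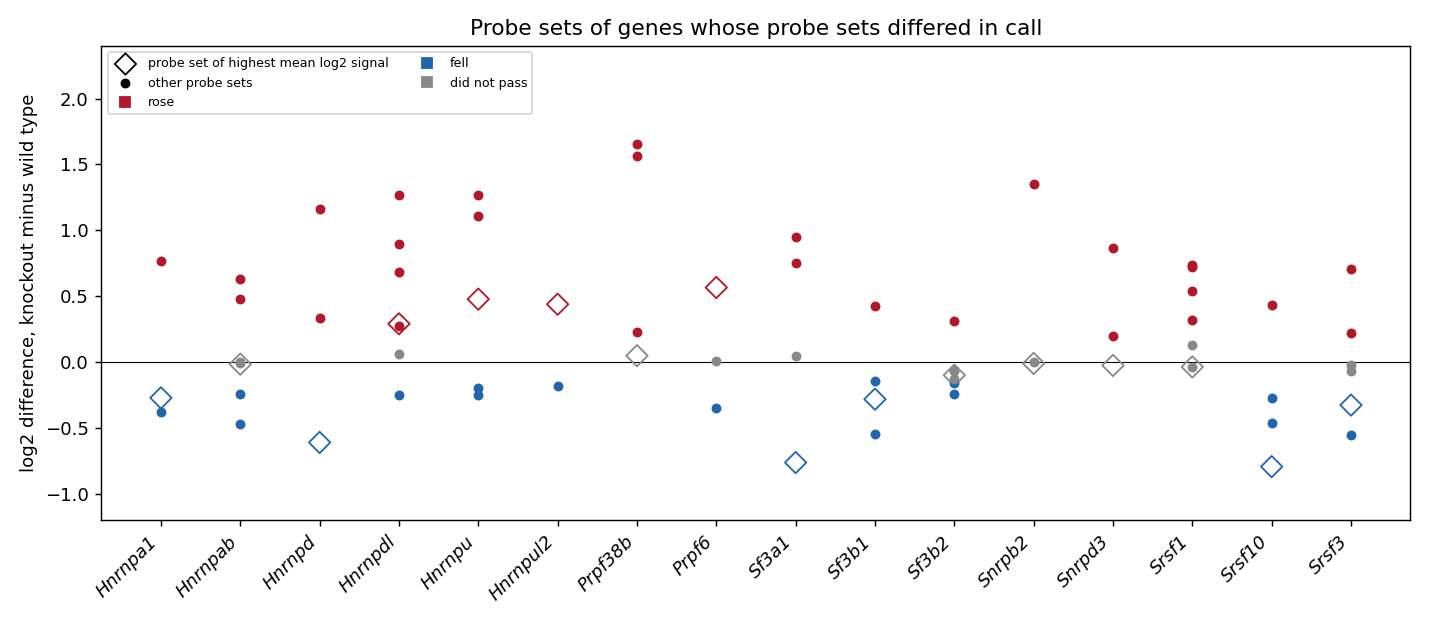
Log2 difference (vertical axis, knockout minus wild type) of every probe set of the 16 genes (horizontal axis) in which a further probe set passed against a brightest one that moved the other way or did not pass. Diamonds mark the brightest probe set and points the others, red where they rose, blue where they fell and grey where they did not pass; for Hnrnpd and Sf3a1 the diamond lies below 0 and the highest point near 1.16 and 0.95.

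Direction was also compared with chromosome. All 6 members on chromosome 4 with a mean log2 signal above 7, Srsf4, Prpf38a, Prpf4, Sf3a3, Srsf10 and Hnrnpr, fell, with a median of -1.15. Of all genes of that brightness on chromosome 4, 78.1% fell and the median was -0.72, the lowest of the 20 chromosomes examined, against -0.078 for all such genes. With genes of each chromosome centred, an alternative chosen with earlier results known, Srsf4 was at -0.94, Prpf38a at -0.65, Prpf4 at -0.56 and Sf3a3 at -0.44, all past the threshold. Srsf10 (-0.15, limma adjusted p = 0.218) and Hnrnpr (-0.13, limma adjusted p = 0.0603) no longer passed.

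Off chromosome 4, 20 of 52 members rose and 23 fell, 38.5% and 44.2%, with a median of -0.032. These shares were near the 38.5% and 47.4% of bright genes on all chromosomes. At least 2-fold falls were of 3 members (Snrpa1, Snrpe and Snrpg), where 13.4% of bright genes fell that much. All 3 bright members on chromosome 6 and all 4 on chromosome 17 fell as well, where 58.8% and 53.6% of bright genes fell. The 3 on chromosome 13, Prpf4b, Hnrnpa0 and Hnrnpk, rose, where 66.8% of bright genes rose and the median of all bright ones was 0.34, and after centring Hnrnpa0 was at -0.0070 and Hnrnpk at -0.28 (limma adjusted p = 0.000126). Other members moved against their chromosome. Hnrnpc fell on chromosome 14, which had the highest median (0.47), and was at -1.37 after centring, and Sf3b3 rose on chromosome 8, whose median was -0.49, and was at 0.99. The Snrp genes that fell by about 2-fold or more lie on 4 different chromosomes, and after centring Snrpa1 was at -1.51, Snrpe at -1.05, Snrpg at -0.91 and Snrpc at -0.84. The part of chromosome position in these differences was not tested.

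**Figure D5:**
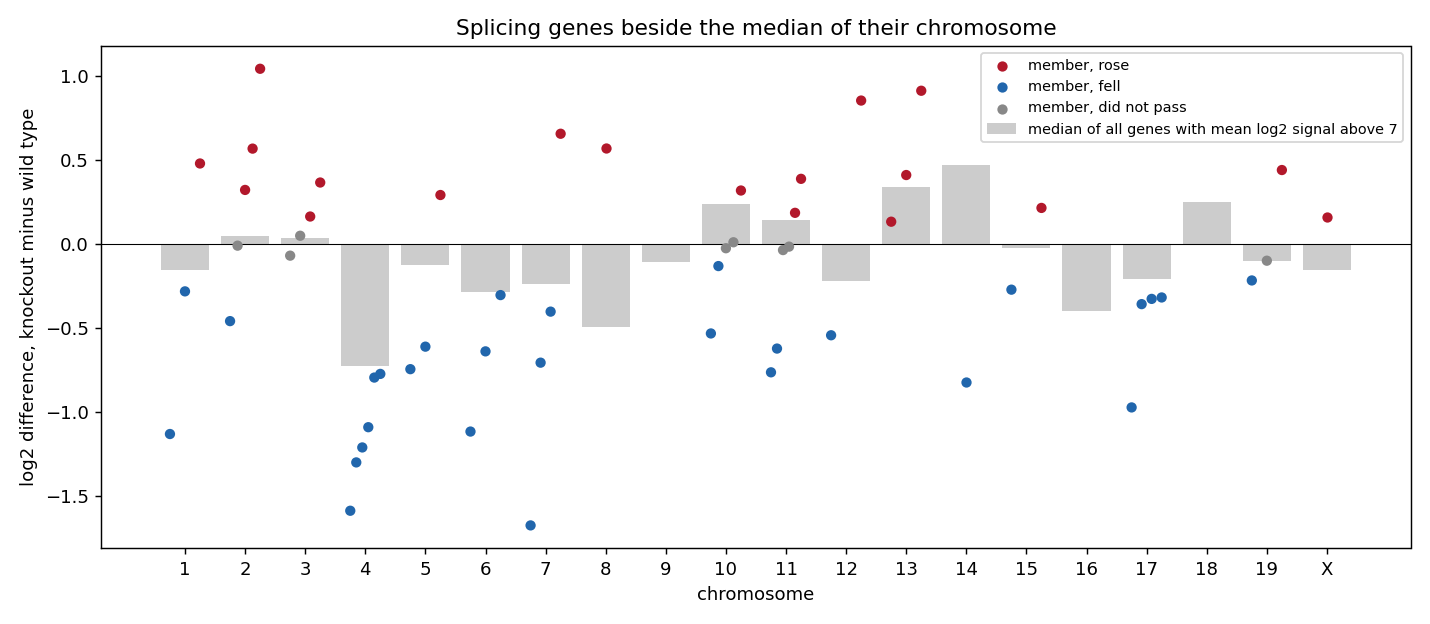
Log2 difference (vertical axis, knockout minus wild type) of each member with a mean log2 signal above 7 by chromosome (horizontal axis), in red where it rose, blue where it fell and grey where it did not pass, over bars for the median of all genes of that brightness on the chromosome. The 6 points on chromosome 4 are all below the bar of -0.72, and the point on chromosome 14 lies below 0 under a bar of 0.47.

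The other genes of the pathway were taken from 8 lists. Among 29 other snRNP and LSm genes, whose LSm proteins ring the U6 RNA or take part in mRNA decay, 20 fell and 3 rose. That is 69% and 10.3%, beside 47.4% and 38.5% of bright genes, though only 23 of the 29 were above a mean log2 of 7. The median was -0.31, or 0.20 under poly-A spike scaling. Lsm3 went from a mean of 1600.4 to 354 (-2.13) and Snrnp40, a U5 snRNP gene on chromosome 4, from 539.5 to 129 (-1.93). Txnl4a, also of the U5 snRNP, rose by 0.81 and Luc7l3, related to a yeast U1 protein, by 0.39.

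Of 14 branch point and 3' splice site factors, 4 rose and 8 fell. The helicase gene Ddx46 rose by 1.29 and the RNA-binding protein gene Rbm5 by 0.92, while U2af1, for the subunit of U2AF that reads the end of the intron, fell from a mean of 1698 to 805 (-1.06) and U2surp fell by 1.07. Of 28 genes of catalytic activation and the Prp19 complex, 12 rose and 12 fell. Wbp4 (1.22) and the helicase gene Ddx23 (from a mean of 18.3 to 63.1) rose and the cyclophilin genes Ppie (-1.06) and Ppil1 (-0.74) fell. The shares in the first of these lists were 28.6% and 57.1% and in the second 42.9% and 42.9%, beside 38.5% and 47.4% of bright genes.

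Of 14 exon junction and export genes, 5 rose and 7 fell, 35.7% and 50%. Of bright genes 38.5% rose and 47.4% fell, and of all genes 24.2% and 35.5%. Acin1 was at 0.96, Casc3 at 0.67, Rnps1 at -1.09 and Rbm8a, for the core protein Y14, at -0.95. Of 21 SR protein kinase and related genes, 5 rose and 9 fell, 23.8% and 42.9%. The SR protein kinase gene Clk4 rose by 0.48 and Srek1 by 0.81, whereas the kinase gene Clk3 fell by 1.04 and Tnpo3, for the importin that carries SR proteins into the nucleus, fell by 0.86. Of 16 genes of the SMN complex and snRNP assembly, which load Sm rings on to the RNAs, 4 rose and 9 fell, 25% and 56.2%. Only 10 of the 16 were above a mean log2 of 7. Gemin2, which holds the Sm proteins in the SMN complex, went from a mean of 189 to 44.9 (-1.75). Prmt7, an arginine methyltransferase, fell by 1.38, while Wdr77 rose by 0.62 and Phax by 0.46.

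Some regulators outside the SR and hnRNP families differed by more than any gene inside them. Of 26 tissue- and signal-dependent regulators 7 rose and 10 fell, 26.9% and 38.5%. Only 13 of them were above a mean log2 of 7, and of all genes 24.2% rose and 35.5% fell. Celf2, a CUG-binding regulator of muscle and brain splicing, had 25.6, 24.6 and 31.6 on wild-type arrays against 415, 431 and 384 on knockout arrays (3.30 ± 0.075 SE, adjusted p = 1.96e-12). Mbnl1, a muscleblind protein that acts against the CELF proteins, had 625, 604 and 613 on wild-type arrays against 1583, 1593 and 1500.5 on knockout arrays (1.32 ± 0.039 SE, adjusted p = 1.78e-11). Both rose in every knockout array. Ptbp3, for a polypyrimidine tract binding protein, on chromosome 4, went the other way, with 1019.7, 1047 and 1049 on wild-type arrays against 199, 186 and 203 on knockout arrays (-2.31 ± 0.043 SE, adjusted p = 3.73e-13), and Mbnl3 fell by 1.49. Of 23 hnRNP-like RNA-binding protein genes 7 rose and 8 fell, 30.4% and 34.8%, beside 38.5% and 47.4% of bright genes. Rbmx was at 1.11, Safb2 at 0.78, Pcbp3 at -0.70 and Raly at -0.53.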

How the data were processed

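Biotin-labelled cRNA from total RNA was hybridised to 6 Affymetrix arrays, 3 per genotype. The deposited values are linear probe set intensities, made by the authors with MAS5 per the submitters' processing notes; the scaling target is not given in the sources used here. Of 45101 probe sets, 34945 had 1 gene symbol, for 18193 genes, and 34741 of these probe sets matched RefSeq. The array number limits the precision.

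The intensities were taken as log2(signal + 16), since dim signals are noisy, which understates the change of dim genes. Genotypes were compared with limma 3.58.1 in R 4.3.3 (lmFit, eBayes with trend, two-sided, Benjamini-Hochberg over all genes, adjusted p under 0.05), tested on simulated data. All other probe sets were fitted likewise, and single values per array by exact permutation. Correlations between arrays were at least 0.9985 within and at most 0.905 between genotypes, and no 2 arrays were identical.

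Members, lists and tests were chosen with earlier results of these data known. Values per array are given for up to 4 members per family with the largest rises and falls and for the brightest of each family. Members with opposite probe sets, the other Snrp genes, Srsf1, Celf2, Mbnl1 and Ptbp3 have them too. From each list 2 genes per direction are named. Other members are given more briefly, and any member may be named. Alternatives covered the offset, scaling, dim genes, probe set choice, variance model, array weights, replicate block and left-out arrays; chromosome centring and the choice by linear mean were added after seeing the data.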

Additional observations from a re-analysis of the deposited data

How the results depend on the processing

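The number of arrays and the signal over background limit these results, since MAS5 signals near the floor carry little information and the arrays may be technical replicates. Neither the offset (1 or 64), quantile normalization, eBayes without trend or robust, array weights nor the probe set of the highest linear mean (added after seeing the data) turned the direction of a result or moved a count or median of the members or families beyond the limits used. The cause of the changes below was not tested. The replicate numbers were not taken as pairs, since arrays of the same number deviated together with correlations of 0.0648, 0.249 and 0.286, although 6 of 6 arrays correlated best with their own number. With the replicate block 20 members rose and 30 fell, Sf3b2 being added (limma adjusted p = 0.0277), and no other call of a member changed. Leaving out 1 array in turn gave 18 to 20 rises, 28 to 30 falls and a median of -0.15 to -0.067 over all members. The medians ranged over -0.099 to 0.019 for Srsf, -0.30 to -0.25 for Hnrnp, -0.59 to -0.46 for Snrp, -0.16 to -0.092 for Sf3a and Sf3b and 0.091 to 0.17 for Prpf.
With each array centred on its median, the median was 0.0031 for all members, 0.074 for Srsf, -0.17 for Hnrnp, -0.029 for Sf3a and Sf3b, 0.23 for Prpf and 0.051 for tissue-dependent regulators. The log2 difference turned to 0.082 for Srsf12. With poly-A spike scaling, the median was 0.32 for all members, 0.35 for Srsf, 0.26 for Hnrnp, -0.018 for Snrp, 0.40 for Sf3a and Sf3b, 0.63 for Prpf, 0.20 for other snRNP and LSm genes, 0.38 for branch point factors, 0.22 for exon junction genes, 0.14 for tissue-dependent regulators and 0.27 for SMN and assembly genes. The number of rises was 35 for all members, 3 for Snrp and 6 for Sf3a and Sf3b. The number of falls was 12 for all members, 2 for Srsf, 2 for Hnrnp, 2 for Sf3a and Sf3b and 2 for Prpf. The log2 difference turned to 0.26 for Hnrnpa1, 0.23 for Hnrnpa2b1, 0.52 for Hnrnpab, 0.12 for Hnrnpl, 0.21 for Hnrnpll, 0.16 for Hnrnpm, 0.32 for Prpf19, 0.43 for Prpf3, 0.25 for Sf3b1, 0.43 for Sf3b2, 0.40 for Sf3b5, 0.077 for Snrpb, 0.51 for Snrpb2, 0.51 for Snrpd3, 0.13 for Snrpn, 0.49 for Srsf1, 0.21 for Srsf3, 0.38 for Abl1, 0.50 for Abl2 and 0.0027 for Raly. With hybridization spike scaling, the median was -0.37 for all members, -0.20 for Srsf, -0.55 for Hnrnp, -0.80 for Snrp, -0.41 for Sf3a and Sf3b and -0.13 for Prpf. The number of rises was 9 for all members, 2 for Srsf, 2 for Hnrnp and 1 for Sf3a and Sf3b. The log2 difference turned to -0.11 for Hnrnph2, -0.15 for Hnrnpk, -0.22 for Prpf38b, -0.033 for Prpf40b, -0.27 for Sf3a2, -0.11 for Sf3b4 and -0.092 for Srsf2. With dim genes left out, the median was -0.17 for all members, -0.75 for Snrp and 0.0074 for tissue-dependent regulators. With the probe sets of a gene averaged, the median was -0.0069 for all members, 0.038 for Hnrnp and 0.0024 for exon junction genes. The number of rises was 2 for Snrp. The log2 difference turned to 0.038 for Hnrnpa1, 0.30 for Hnrnpd, 0.25 for Sf3a1, 0.45 for Snrpb2, 0.35 for Snrpd3, 0.34 for Srsf1 and 0.13 for Abl1. With probe sets of the suffixes a, s and x left out, the median was -0.021 for all members, 0.023 for Hnrnp, -0.28 for Snrp and -0.24 for Sf3a and Sf3b. The number of rises was 1 for Snrp. The number of falls was 6 for Hnrnp and 3 for Snrp, with Hnrnpm, Snrpa1, Snrpb and Snrpe not measured in this setting. The log2 difference turned to 0.77 for Hnrnpa1, 1.16 for Hnrnpd, -0.19 for Hnrnpu, 1.35 for Snrpb2, 0.74 for Srsf1, -0.15 for Srsf2, 0.70 for Srsf3 and 0.20 for Raly. With chromosomes centred (added after seeing the data), the median was -0.20 for all members, -0.19 for Hnrnp, -0.84 for Snrp and -0.30 for Sf3a and Sf3b. The number of rises was 5 for Hnrnp and 1 for Sf3a and Sf3b. The log2 difference turned to -0.0070 for Hnrnpa0, -0.28 for Hnrnpk, -0.30 for Sf3a2 and -0.035 for Srsf2.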
